A study of Rattus norvegicus with 14 samples.

Results

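Polyamines (putrescine, spermidine and spermine) are small cations that bind nucleic acids, and dividing epithelial cells need them. The colonic epithelium makes its own and also takes them up from a lumen in which bacteria and food supply them. The genes described here are those that make polyamines (Odc1, Amd1, Srm, Sms), those that acetylate and oxidise them (Sat1, Smox, Paox) and those that control ornithine decarboxylase through antizyme (Azin1, Oaz1, Oaz2). They were taken by name from the array, where all 10 genes had probes, 15 in all, out of 26276 gene names and 30367 probes. None of the 10 genes passed a q-value of 0.1 between the diets, and the downstream probe of Oaz2 and the probe of Smox were the nearest to a difference.

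The RNA came from colonocytes of young male Wistar rats (an outbred strain) that ate an isocaloric normal-protein diet (NPD, 14% of energy from protein) or high-protein diet (HPD, 55%) for 15 days, with carbohydrate exchanged for milk protein. Each group had 7 rats, and each rat had 1 array. The epithelium was detached from the colon by perfusion with a calcium chelator, so every sample is a mixture of the epithelial cell types, and fewer cells of a type cannot be told apart from less RNA per cell. The study asked how a high protein intake alters gene expression in these cells, and the comparison of the diets asks this of the polyamine genes. Values are the log2 of the background-subtracted signal relative to the median probe of the same array, so that 1 unit is a doubling and levels of different probes cannot be set against each other.

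The arrays lay on 2 slides, with 4 NPD and 3 HPD arrays on slide 1 and 3 NPD and 4 HPD arrays on slide 2. Between 18065 and 20393 probes per array were well above background. For the colonocyte label, all 12 epithelial markers (Epcam, Krt8 and Krt20 among them), all 8 goblet markers (Muc2 among them) and all 7 enteroendocrine markers (Chga among them) passed the scanner's test for a signal well above background on all 7 arrays of 1 or both diets, as did 5 of 10 immune and 7 of 10 stromal and muscle markers. The leukocyte marker Ptprc and the collagen gene Col1a1 passed it on all 14 arrays. The summed signal of 10 immune markers, relative to the array median, was 11.7 to 30.2 in NPD and 12.6 to 17.9 in HPD, that of 10 stromal and muscle markers was 14.0 to 29.0 and 12.1 to 23.0, and that of 9 stem and cycling markers was 130.0 to 215.6 and 117.3 to 230.0. Over all marker lists limma called 0 of 59 genes, and 0.0609% of all gene names on the array had a called probe. By their brightest probe, 10 of the 59 had an unadjusted limma p below 0.05, against 11.4% of all probes. These 10 are named here after their values were seen. Of these 10, 5 were higher in HPD: Spink4 by 1.82 (goblet), Col1a1 by 0.35 and Col3a1 by 0.61 (stroma), Itgam by 0.34 (myeloid) and Hba-a2 by 0.52 (red blood cells). The other 5 were lower, with differences of -0.36 for Krt19 (epithelium), -0.56 for Clca1 and -0.63 for Agr2 (goblet), -0.68 for Top2a (cycling) and -0.48 for Myh11 (smooth muscle). Col3a1 was well above background on 0 of 14 arrays. The lists did not move as wholes: 8 epithelial markers were higher in HPD and 4 lower, and 3 goblet markers were higher and 5 lower. Of the stem and cycling markers 4 were higher and 5 lower, and of both the immune and the stromal and muscle markers 5 were higher and 5 lower. The part of cell makeup in the values below was not tested.

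All 15 probes were well above background on all 14 arrays and none was saturated. Two-sided exact permutation tests over the 1716 distinct splits of 7 against 7 arrays were run on each of the 15 probes beside the limma fit, and the smallest p that such a test can give is 0.00058.

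Several probes show where on the mRNA the array reads. The sequences below, from the scanner files, are those of the probes that the results turn on. The first Oaz2 probe spans 966 bases of the genome, so it matches spliced mRNA, while the second Oaz2 probe and the Oaz1 probe hold the polyadenylation hexamer AATAAA (capitals; 30 bases of each are shown), which usually stands close to the 3′ end of a message. AATAAA was searched on the printed strand, and 8.39% of all probes hold it. The Sat1 probe ends in a TGA stop codon (capitals) that closes an otherwise open frame.
Oaz2 upstream probe, chr8:69945396-69946361 (rn4, plus strand): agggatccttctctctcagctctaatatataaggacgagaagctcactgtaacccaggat
Oaz2 downstream probe, within chr8:69948767-69948824 (rn4, plus strand): tgttactgtgtcAATAAActgatttaaagt
Oaz1 probe, within chr7:10394495-10394554 (rn4, minus strand): tggctcaaacctAATAAAtaaagtgatctc
Smox probe, chr3:119245527-119245586 (rn4, plus strand): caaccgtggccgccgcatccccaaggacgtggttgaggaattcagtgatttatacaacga
Sat1 probe, chrX:61637834-61637893 (rn4, plus strand): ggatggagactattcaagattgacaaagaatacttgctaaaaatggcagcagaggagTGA

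Odc1, which encodes ornithine decarboxylase and makes putrescine at the first committed step, differed little between the diets. Its probe (A_43_P14163, base 2225 of NM_012615) ran from 4.80 through a median of 5.07 to 5.23 in NPD and from 4.96 through 5.07 to 5.49 in HPD. The groups overlapped almost wholly, and 2 of 7 HPD rats were above every NPD rat. The mean was 5.04 ± 0.18 (SD, n = 7) in NPD and 5.12 ± 0.19 (SD, n = 7) in HPD, a ratio of 1.06 with a 95% interval of 0.889 to 1.25 (limma q = 0.739). The rats varied less for this probe than for most, with a SD within diet and slide of 0.16. The median SD was 0.31 over all probes and 0.22 over those well above background on all arrays. Its small difference turned negative, down to -0.08, when the signal was not background-subtracted or was corrected with normexp.

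Amd1 encodes S-adenosylmethionine decarboxylase, which supplies the aminopropyl groups for spermidine and spermine. Its probe A_42_P595591 was printed 10 times on each array. The NPD rats ran from 5.29 through 5.86 to 6.01 and the HPD rats from 5.39 through 6.001 to 6.38, with 6 of 7 HPD rats above the NPD mean. The difference was 0.20 ± 0.16 (SE), a 1.15-fold ratio with a 95% interval of 0.912 to 1.45, which was not significant (q = 0.534). The 10 spots of an array differed by a SD of 0.04, and rats of 1 diet and slide differed by a SD of 0.21, so repeat spots agreed far more closely than rats.

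Srm, spermidine synthase, and Sms, spermine synthase, each had more than 1 probe on the same transcript, and these probes did not give 1 answer. For Srm, the probe at base 1004 had a mean of 4.20 ± 0.39 in NPD and 4.11 ± 0.30 in HPD (SD, n = 7), and the probe at base 1192 had 5.36 ± 0.64 and 5.54 ± 0.53. The fitted differences were -0.08 (q = 0.824) and 0.18 (q = 0.760), and the interval of the second reached from 0.738-fold to 1.75-fold. For Sms, the probe at base 635, which spans 772 genomic bases across an intron, had 0.13 ± 0.39 in NPD and -0.15 ± 0.40 in HPD (SD, n = 7), a difference of -0.29 (limma q = 0.515). The Sms probes at bases 1341 and 1515 were higher in HPD by 0.14 (q = 0.545) and 0.23 (q = 0.580). None of these 5 differences was called.

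Sat1 encodes spermidine/spermine N1-acetyltransferase, the inducible first step of polyamine breakdown. The NPD rats ran from 6.65 through 7.16 to 8.23 and the HPD rats from 6.71 through 6.96 to 7.81, so that every HPD value lay inside the NPD range. The difference was -0.15 ± 0.22 (SE), or 0.903-fold with an interval of 0.647 to 1.26 (q = 0.747). The direction rested on 1 rat: without NPD 1, whose value of 8.23 was 0.99 above the next, the difference was 0.02.

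Smox, spermine oxidase, turns spermine into spermidine and releases hydrogen peroxide, and its probe had the largest difference of the 15. The NPD rats ran from 2.06 through 2.33 to 3.19 and the HPD rats from 2.17 through 2.88 to 3.89. All but 1 of the HPD rats were above the NPD mean, and 2 of them, both on slide 2, were above every NPD rat. The mean was 2.47 ± 0.36 in NPD and 3.00 ± 0.62 in HPD (SD, n = 7), a ratio of 1.44 with a 95% interval of 0.989 to 2.11. The unadjusted limma p was 0.056 and q was 0.441, and the two-sided exact permutation p was 0.0769 over all arrays and 0.0604 when arrays were regrouped only within their slide. HPD was higher on both slides, by 0.26 on slide 1 and by 0.60 on slide 2. The probe was also 0.68 higher on slide 2 than on slide 1 with diet in the model (q = 0.0157 for slide).

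Paox, the oxidase that acts on acetylated polyamines, had 2 probes. The probe on NM_001106311 (A_44_P123788) had 5.82 ± 0.28 in NPD and 5.89 ± 0.29 in HPD (SD, n = 7, q = 0.824). The other, A_44_P1047136, is assigned to a cDNA (FQ212842) and lies 15586 bases beyond the first on chromosome 1 of rn4, farther than the whole length of the RefSeq Paox gene, so whether it reads Paox mRNA is uncertain. It had 3.66 ± 0.16 in NPD and 3.52 ± 0.16 in HPD, a difference of -0.13 (q = 0.546), with 6 of its 7 HPD values under the mean of NPD. This was the sole member probe that any alternative called: with normexp background correction the difference was -0.26 (q = 0.0893), in a setting that called 5142 probes of the array.

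Antizymes bind ornithine decarboxylase monomers and send them to the proteasome, and their own synthesis needs a ribosomal frameshift that polyamines promote. Antizyme inhibitor, the product of Azin1, resembles the decarboxylase without its activity and takes antizyme away from it. Azin1 ran from 1.81 through 2.20 to 2.79 in NPD and from 1.91 through 2.07 to 2.77 in HPD, a difference of -0.14 ± 0.16 (SE, q = 0.675). The highest HPD value, 2.77 in HPD 1, stood 0.59 above the other HPD rats, and without that array the difference was -0.24 (q = 0.332).

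Oaz1, antizyme 1, ran from 9.43 through 9.70 to 10.09 in NPD and from 9.46 through 9.91 to 10.48 in HPD, and 3 of 7 HPD rats exceeded every NPD rat. The difference was 0.25 ± 0.17 (SE), a ratio of 1.19 with a 95% interval of 0.927 to 1.52 (q = 0.515). Within slides it was smaller, 0.19 on slide 1 and 0.16 on slide 2, and the slides themselves differed by 0.48 (q = 0.00543).

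Oaz2, antizyme 2, gave different values at its probes. At the downstream probe, NPD rats ran from 7.11 through 7.30 to 7.73 and HPD rats from 7.22 through 7.72 to 8.02. Here 6 of 7 HPD rats were above the NPD mean and 3 were above every NPD rat, and the mean went from 7.34 ± 0.19 to 7.69 ± 0.28 (SD, n = 7). The ratio was 1.28 with a 95% interval of 1.04 to 1.57, the two-sided exact permutation p was 0.0198 over all arrays and 0.0188 within slides, and q was 0.417. At the upstream probe the means were 1.03 ± 0.21 and 1.01 ± 0.22, a ratio of 0.989 with an interval of 0.816 to 1.20 (q = 0.956). Beside the 1 of 15 member probes with an unadjusted limma p below 0.05 stand 11.4% of all probes on the array. In a fit of only the 17937 probes well above background on every array of a diet, 2824 had such a p. Of the 15 member probes, 2 did in that fit.

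**Figure D1:**
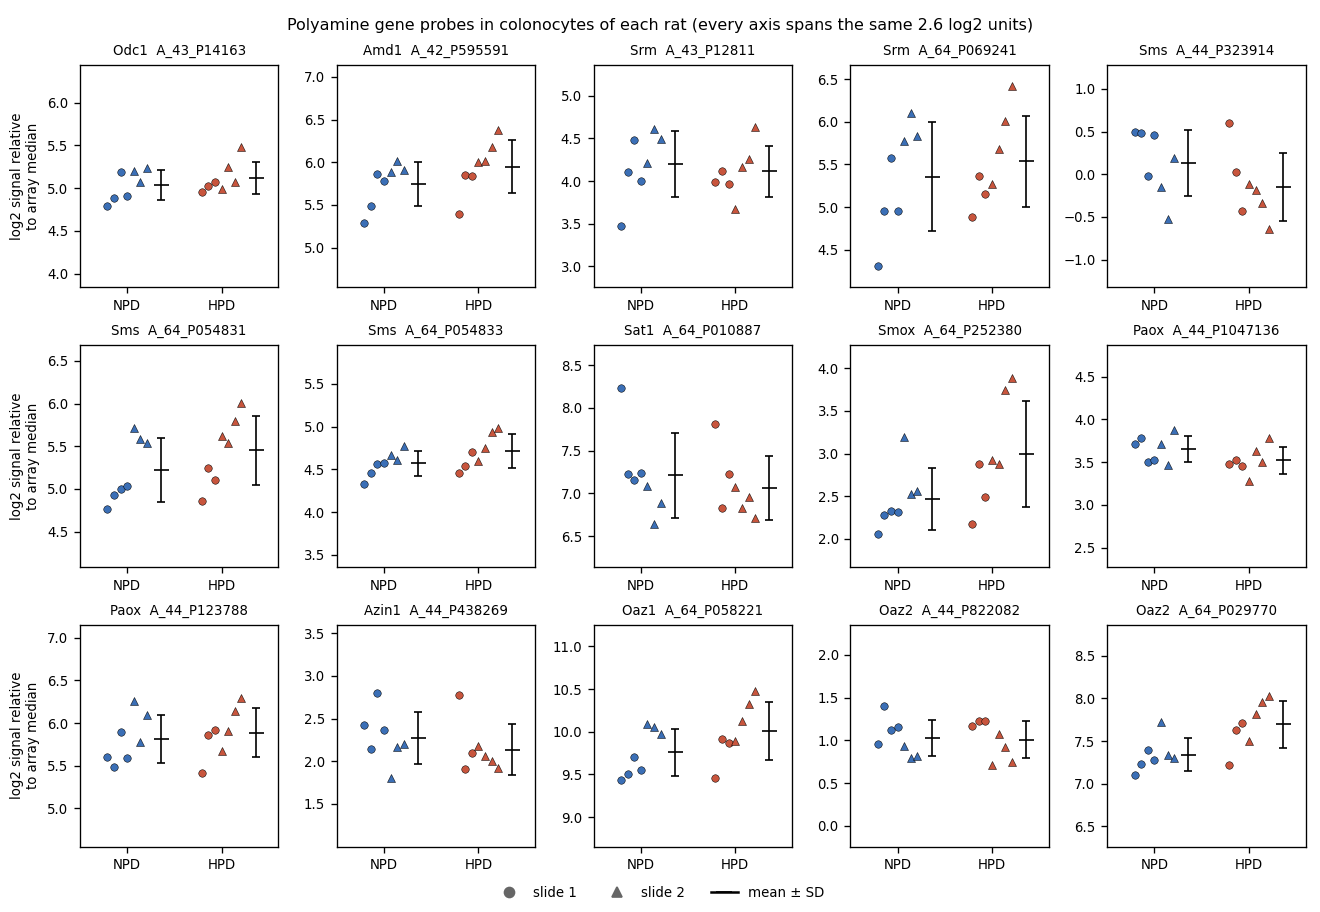
Signal of each of the 15 probes in each rat (log2 relative to the array median, every axis spanning the same range), with NPD in blue, HPD in red, circles for slide 1, triangles for slide 2 and points within a diet placed by label number; bars give the mean ± SD of 7 rats. The diets overlap at every probe, Smox has its 2 highest values in HPD rats of slide 2, and Sat1 has 1 NPD rat at 8.23.

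Over the members as a group, 0 of 10 genes were called, where 0.0609% of all gene names on the array had a called probe. The paper, also with limma, diet as the fixed effect and q < 0.1, reported far more genes as changed. The reason for this gap was not tested, so the lack of calls holds for the processing used here. In direction, 9 of the 15 probes were higher in HPD, and 64.2% of all probes were. The median difference of the 15 probes was 0.08 and that of all probes was 0.11, so 7 probes lay above and 8 below the shift of the array as a whole. All 15 were well above background, however. The median over the 17937 probes well above background on every array of a diet was 0.05, below that of the 15. The number of member probes higher in HPD also depended on the background correction. Without background subtraction 7 of the 15 probes were higher, with normexp 6 (median -0.06, against 0.07 for all probes), with normexp and slide as a block 5 (median -0.07 against 0.05), and in the log2 values of the authors 4 of 10 genes (median -0.08 against 0.05). With normexp and slide as a block the differences also shrank to 0.28 for Smox, 0.18 for the downstream Oaz2 probe, 0.05 for Oaz1, 0.02 for Amd1 and 0.0033 for Sms at base 1515. The groups did not overlap at 0 of 15 member probes and at 0.273% of all probes. The intervals bound what these arrays could miss: across the 15 probes they reached from -0.72 to 1.08 on the log2 scale, and after Smox and the downstream Srm probe the next highest upper bound was 0.66.

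**Figure D2:**
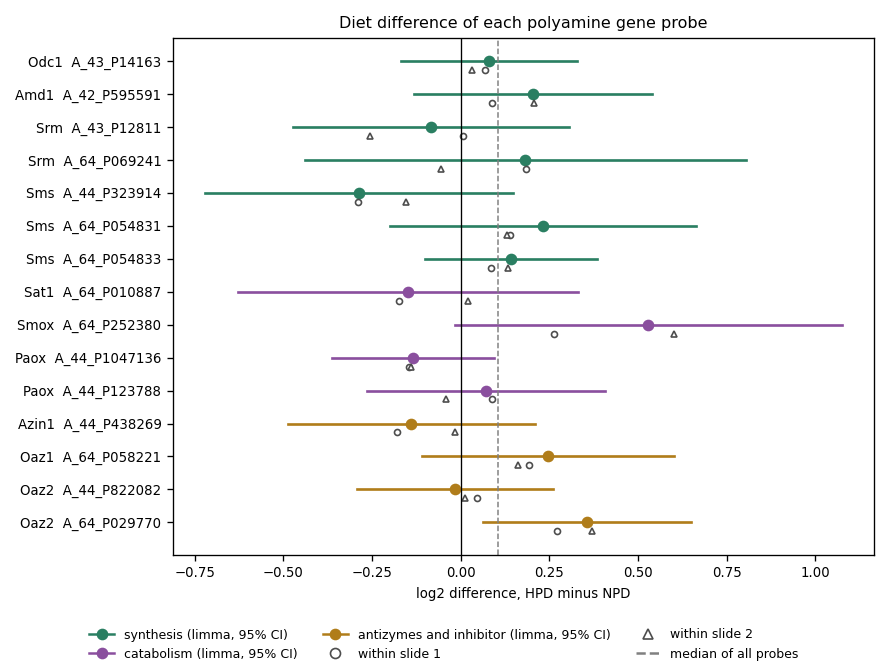
Difference between the diets for each probe (log2, HPD minus NPD) with its 95% interval from limma, coloured by role, and below it the difference within slide 1 (open circle) and slide 2 (open triangle); the dashed line is the median of all probes, 0.11. The intervals of 14 probes include 0, and that of the downstream Oaz2 probe runs from 0.06 to 0.65.

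Slides differed more than diets did. The difference between slides exceeded that between diets at 13 of the 15 member probes, and it passed q = 0.1 at 10 of them, as it did at 40.1% of all probes. The downstream Srm probe was 0.83 higher on slide 2 (q = 0.00775) and the Sms probe at base 1515 was 0.68 higher (q = 0.000621), whereas the Sms probe at base 635 differed by -0.45 (q = 0.0589) and Sat1 by -0.49 (q = 0.0611). The interaction of diet and slide was called at 0 of the 15 probes (limma, lowest q = 0.9999), and 0 had an unadjusted interaction p below 0.05.

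The probes of 1 transcript were then compared within each array, which removes whatever an array does to all its probes alike. For Oaz2, the downstream probe exceeded the upstream probe by 6.31 ± 0.32 in NPD and 6.69 ± 0.41 in HPD (SD, n = 7), a change of 0.37 (two-sided exact permutation p = 0.081, and 0.0261 within slides). For Srm, the difference was 1.16 ± 0.31 in NPD and 1.43 ± 0.33 in HPD, a change of 0.27 (exact p = 0.14, and 0.0261 within slides). For Sms, between bases 635 and 1515, it was 5.09 ± 0.72 and 5.61 ± 0.75, a change of 0.52 (exact p = 0.204, and 0.155 within slides). In each of the 3 genes 6 of 7 HPD rats were above the NPD mean, although over all arrays none of the 3 permutation tests reached p = 0.05.

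The same measure followed the slide. For Srm it was 0.83 to 1.25 on slide 1 and 1.34 to 1.78 on slide 2, with no overlap, and its slide means were 4.76 and 5.94 for Sms and 6.19 and 6.81 for Oaz2. Nor was it particular to these genes. Among 1299 RefSeq mRNAs whose outermost probes were at least 150 bases apart and well above background on all arrays, the downstream probe had the higher HPD minus NPD difference in 65.9%, with a median of 0.11, and the higher slide difference in 67.4%, with a median of 0.25. The part of RNA integrity or labelling in these values was not tested.

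**Figure D3:**
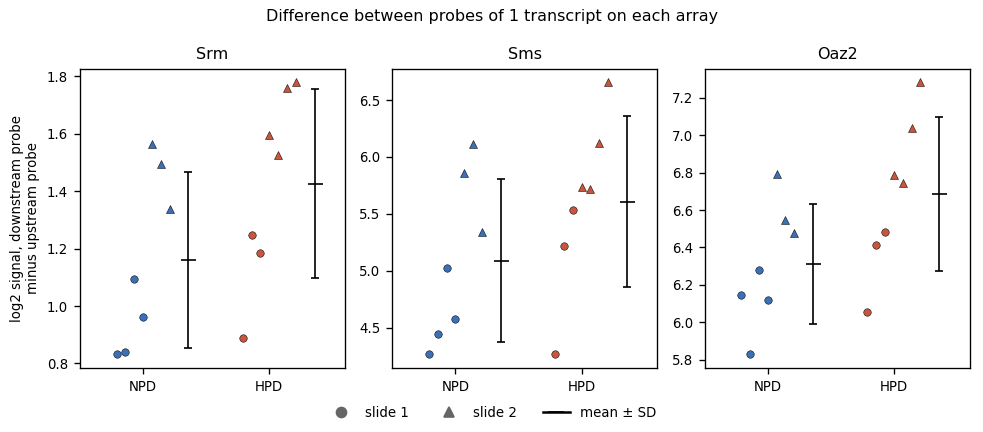
Log2 signal of the most downstream probe minus that of the most upstream probe of Srm, Sms and Oaz2 on each array, with NPD in blue, HPD in red, circles for slide 1, triangles for slide 2 and bars for the mean ± SD of 7 rats. The slide 2 arrays lie above the slide 1 arrays within each diet for Srm, and the HPD mean is above the NPD mean by 0.27 for Srm, 0.52 for Sms and 0.37 for Oaz2.

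The promoters were searched for CACGTG, the E-box to which Myc and its partner Max bind, since Odc1 and Srm are known Myc targets. RefSeq (GRCr8) gave a promoter from 250 bases before to 50 after the start for 9 of the 10 genes. CACGTG, which reads alike on both strands, was found in 2 of these 9, Srm and Oaz1, and in 6.42% of all 33469 promoters. The 30 bases around each match, 5′ to 3′ on the strand of the gene with the motif in capitals, are as follows.
Srm, chr5:164308817-164308846 (GRCr8, plus strand), 173 bases before the start: gcccctcggcccCACGTGgcccggcagccg
Oaz1, chr7:9537207-9537236 (GRCr8, minus strand), 234 bases before the start: gagtgacgcaaaCACGTGggggcgggactc
Neither gene was called, and Myc itself differed by 0.02 (q = 0.946, named after its value was seen). Sites outside this window were not searched, and the part of Myc in the values was not tested.

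Genes around the pathway were read by their brightest probe, in 6 lists with 44 genes on the array. None was called with any probe, 24 were higher and 20 lower in HPD, and their median difference was 0.02 against 0.11 for all probes. Unadjusted limma p was below 0.05 for 6 of the 44, against 11.4% of all probes in either direction. All 6 were lower in HPD, and 5.55% of all probes were lower at that threshold, a direction taken up after the values were seen.

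In the list for the supply of ornithine and arginine, 4 of 11 genes were higher and 7 lower, with a median of -0.11. Of the 11, 8 were well above background on all arrays of 1 or both diets. Gamt, which methylates guanidinoacetate to creatine with S-adenosylmethionine, ran from 4.90 through 5.01 to 5.40 in NPD and from 4.68 through 4.82 to 4.95 in HPD. All 7 HPD values were under the mean of NPD and 6 were under every NPD value, a difference of -0.25 ± 0.10 (SE, limma q = 0.417). Arginase 2 (Arg2) and ornithine aminotransferase (Oat), named for their roles after their values were seen, differed by 0.04 and 0.07.

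In the methionine cycle and methylthioadenosine salvage, which recycles the by-product of spermidine and spermine synthesis, 7 of 10 genes were higher and 3 lower, with a median of 0.10. Mtap, the phosphorylase that starts this salvage, ran from 1.04 through 1.43 to 1.99 in NPD and from 0.00 through 1.05 to 1.71 in HPD. Its difference was -0.58 ± 0.22 (SE, q = 0.417), and 6 of its 7 HPD values were under the mean of NPD.

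Hypusine is made from spermidine on the translation factor eIF5A, and Dhps encodes the enzyme of its first step. Dhps ran from 1.77 through 2.24 to 2.39 in NPD and from 1.30 through 1.61 to 2.28 in HPD, so that 5 of 7 HPD rats were below every NPD rat. The difference was -0.47 ± 0.17 (SE, q = 0.417), the list had 4 genes with 2 higher and 2 lower, and its median was -0.01.

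Among polyamine transport genes, 5 of 10 were higher and 5 lower, with a median of -0.09. Atp13a2, a lysosomal polyamine exporter, had 1.64 ± 0.21 in NPD and 1.34 ± 0.28 in HPD (SD, n = 7, limma q = 0.437), and all 7 HPD values were under the mean of NPD. Cav1, which encodes caveolin-1, a protein linked to polyamine uptake by endocytosis, had 1.54 ± 0.50 and 0.94 ± 0.59 (limma q = 0.430). Uptake was not measured, so no direction of uptake can be read from this value. Cav1 is also strong in stromal and endothelial cells, whose summed markers are given above.

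Of the other oxidases, acetylases and antizyme genes, 4 were on the array, 3 higher and 1 lower, with a median of 0.08. Only 1 of the 4 was well above background on all arrays of a diet, so these directions rest largely on dim signals. Sat2, a relative of Sat1, was well above background on 5 of 7 NPD arrays and on 0 of 7 HPD arrays, so HPD has only an upper bound. Measured means were -1.20 in NPD and -2.30 in HPD (limma q = 0.417). With each HPD array set at the higher of its own value and its lowest signal among probes well above background, HPD was 1.59-fold lower. NPD arrays that did not pass kept their measured values, so 1.59 is an estimate and not a lower limit. With normexp the fitted log2 difference shrank to -0.21. Diamine oxidase, under its older symbol Abp1 and named for its role after its value was seen, differed by 0.10 (q = 0.855).

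Of Myc and its partners, 3 of 5 genes were higher and 2 lower, with a median of 0.02, and none had an unadjusted p below 0.05. Gamt, Mtap, Dhps and Atp13a2 were called with normexp and in the authors' log2 table once slide was a model term, settings that also called 5142 and 2767 features over the array.

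**Figure D4:**
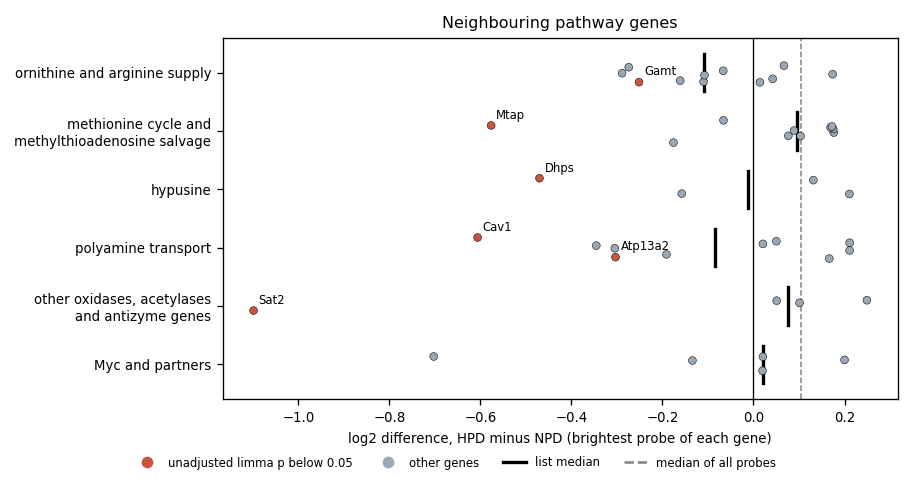
Difference between the diets (log2, HPD minus NPD) of the brightest probe of each of 44 genes around the polyamine pathway, by list, with genes of unadjusted p below 0.05 in red and named, a black bar at each list's median and a dashed line at the median of all probes. The 6 named genes all lie below 0, from -1.10 for Sat2 to -0.25 for Gamt.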

How the data were processed

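Colonocyte RNA of 14 rats was read on 1-colour Agilent arrays. The authors deposited each array's scanner output from Feature Extraction 10.7.3.1, with a linear intensity per spot before and after background subtraction, and a table of log2 values per gene name, centred by array. One rat per group that the authors removed as an outlier was not analysed here, and 0 columns belonged to other samples.

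Spots that were controls or carried an outlier mark were dropped, the background-subtracted signal was log2-transformed, spots of a probe were averaged and each array was centred on its median. The diets were fitted in R 4.3.3 by limma 3.58.1, after reading with data.table version 1.17.8, diet being the sole term, with Benjamini-Hochberg adjustment over 30367 probes and a threshold of q = 0.1. No filter on signal was applied. The number of arrays limits the precision. The fit was tested on simulated data with independent noise and no slide effect. That test cannot cover the slide differences seen here. Single probes were also compared by two-sided exact permutation tests over all splits and over 1225 regroupings within slides. Slide is the array barcode in the file headers.

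The rule for named genes took every member probe, the defining markers, and from each list around the pathway the called genes or else up to 3 with the smallest unadjusted p below 0.05. The members and lists were chosen with earlier results of these data known. Probe coordinates are those of the scanner files (rn4), and promoters are from RefSeq (GRCr8). Exon and UTR annotation of rn4 was not used here. Alternatives covered signal, background correction, centring, normalization, filter, slide, replicate block and each array left out. Mki67 was not measured under that name.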

Additional observations from a re-analysis of the deposited data

Results flagged for a closer look

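Each of the 15 probes was tested in both diets for an array standing apart from the others of its group (Dixon's ratio of the gap to the range, critical value 0.568 for 7 samples), which made 30 tests, and chance gives about 1 in 20. The test found 2 arrays. Sat1 in NPD 1 was 8.23, against 6.65 to 7.24 in the other NPD rats, with a ratio of 0.626. Azin1 in HPD 1 was 2.77, against 1.91 to 2.18 in the other HPD rats, with a ratio of 0.683. No difference between the slides in the diet effect was found for a member.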

How the results depend on the processing

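The number of probes called over the array, 17, depended strongly on the processing, while the number of member genes called was 0 in all but 2 settings. With normexp background correction 5142 probes, 1 member gene and 8 genes around the pathway were called, with normexp and slide as a block 8479, 1 and 15, and in the authors' log2 table with slide as a block 2767 features and 8 genes around the pathway, with 0 members. Slide as a block gave 27 probes, cyclic loess with slide as a block 40, and the replicate block 8. Without 1 array the count ran from 9 to 151 probes, the highest without HPD 1, where 4 member probes had an unadjusted p below 0.05 and none was called. The cause of these shifts was not tested. Replicate numbers are shared between the diets, and the correlation of the deviations of same-numbered arrays ran from -0.09 to 0.39, below 0.1 for number 4. Number 4 alone had its arrays on different slides, so this check cannot tell pairing from slide. The numbers were not taken as pairs, and under the replicate block no member was called.

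Of the members, Amd1, Smox, Azin1, Oaz1, the downstream Oaz2 probe, the Srm probe at base 1004, the Sms probes at bases 635 and 1515 and Paox A_44_P1047136 kept their direction in every setting run. Their sizes moved by over 1.5 times. Smox lay between 0.28 and 0.67, the downstream Oaz2 probe between 0.18 and 0.44, Amd1 between 0.0228 and 0.296, Oaz1 between 0.0464 and 0.338, Sms at base 1515 between 0.00327 and 0.330, Sms at base 635 between -0.412 and -0.131, Srm at base 1004 between -0.243 and -0.00974, Azin1 between -0.245 and -0.0520 and Paox A_44_P1047136 between -0.262 and -0.0691. The 5 that were higher in HPD were smallest with normexp and slide as a block, and without 1 array Smox was lowest without HPD 7, at 0.381. Paox A_44_P1047136 was called with normexp (-0.26) and with normexp and slide as a block (-0.26). Odc1 turned to -0.0207 with mean and -0.0225 with median pixel signal, -0.0615 with normexp (-0.0817 with slide as a block) and -0.0639 in the deposited table, or -0.0645 there once slide was blocked. Srm at base 1192 turned to -0.0707 with normexp and slide as a block. Sms at base 1341 turned to -0.00246 with normexp and -0.0133 with slide as a block beside it. Sat1 was lowest with normexp, at -0.296, and when 1 array was left out it ran from -0.273 (without HPD 1) to 0.0227 (without NPD 1). Paox A_44_P123788 turned to -0.0318 with mean and -0.0423 with median pixel signal, -0.0733 with normexp (-0.115 with slide as a block), -0.00149 with mean centring and -0.00176 with quantile normalization. Oaz2 A_44_P822082, near 0 throughout, turned to 0.0241 with quantile normalization, 0.0198 with cyclic loess (0.0621 with slide as a block), 0.0303 with slide as a block and when regrouped within slides, and 0.0489 with spots centred before averaging and 0.0506 with the 75th percentile and slide as a block (both chosen after seeing the data), and ran from -0.0563 to 0.0454 without 1 array. The mean over probes turned in the deposited table from 0.0496 to -0.0976 for Srm (-0.142 once slide was blocked) and from 0.0290 to -0.105 for Sms (-0.0893 once slide was blocked).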
